A study of Mus musculus with 2 samples.

Results

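The cells described here are B cells chosen by their unique molecular identifiers (UMIs, one per captured transcript) of Fcrl5, Sox5 and Mzb1. A cell needed at least 3 UMIs in all of the B cell genes Cd79a, Ms4a1, Ebf1 and Pax5 and at least 2 UMIs in all of Fcrl5, Sox5 and Mzb1. It could hold no UMI of Cd3d, Cd3e or Cd3g, and at most 1 UMI of Trac and Trbc2, at most 1 of Krt8 and Krt18 and at most 1 of Lyz2. In all, 654 of 32976 cells met the rule, 336 of 17108 in the vehicle library and 318 of 15868 in the RP-6306 library. They are called the chosen cells below, and the 2459 and 2363 B cells that passed the same filters with no UMI of Fcrl5, Sox5 or Mzb1 are called other B cells.

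The study profiled tumours under RP-6306, which inhibits PKMYT1, a kinase that restrains entry into mitosis. Wild-type C57BL/6 mice carried subcutaneous tumours of RM-1, a mouse prostate cancer line, and were given vehicle or RP-6306, with tumours taken on day 10. Leukocytes sorted for CD45 were pooled with tumour cells, 3 parts to 1, and each group gave 1 droplet library with 3' counting. The design names a pair of mice, and there is 1 library per group, so no test between conditions could be made, no replicate check exists, and animal, library and treatment cannot be told apart.

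Fcrl5 encodes an Fc receptor-like protein that in mice is known from marginal zone and B-1 B cells, Sox5 a transcription factor reported in human atypical memory B cells, and Mzb1 a chaperone of the endoplasmic reticulum that helps immunoglobulin assembly in marginal zone, B-1 and antibody-secreting cells. Marginal zone B cells sit at the edge of the splenic follicle, carry much Cr2 and Cd1d1 and little Fcer2a, and depend on Notch2. B-1 cells, found mainly in body cavities, make natural IgM and depend on Bhlhe41. Memory B cells in mice are told apart by Cd80, Nt5e and Pdcd1lg2, while germinal centre B cells switch and mutate their immunoglobulin genes.

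The deposited matrices held 135415063 UMIs in 17313 vehicle barcodes and 158073632 UMIs in 15909 RP-6306 barcodes. The chosen cells were deeper than the other B cells, with medians of 3066 and 2906 UMIs against 2116 and 1888 in the vehicle and RP-6306 libraries, and a rule that counts UMIs favours deep cells. T cells, used to show how often free RNA gives a UMI, had medians of 3354 and 2897. Of the B cells that passed every other filter, the chosen cells were 9.65% (95% interval 8.69 to 10.7) of 3482 in the vehicle library and 9.27% (8.32 to 10.3) of 3431 in the RP-6306 library, a log2 difference of -0.06. All intervals are exact, cover counting error only and say nothing of the spread between animals. The 2 matrices shared 374 barcodes, none of them a chosen cell in both.

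The label of Fcrl5, Sox5 and Mzb1 positive B cells held for few cells in full. Only 15 vehicle and 15 RP-6306 cells had a UMI of all 3 genes, and 150 and 142 had Mzb1 alone among them. Fcrl5 gave 139 UMIs in 88 vehicle cells and 143 in 86 RP-6306 cells, Sox5 339 in 124 and 332 in 113, and Mzb1 667 in 284 and 559 in 268. At the threshold itself, 687 vehicle and 750 RP-6306 B cells had 1 UMI of the 3 genes and were left out, 181 and 180 had exactly 2, and 155 and 138 had 3 or more. Plac8 and Cybb were not in the rule but were given as markers of these cells, with earlier results of these data known. Plac8 stood at 264, 376, 459 and 627 CPM (UMIs of a gene after all summed UMIs of a cell group are scaled to one common total) in vehicle B cells with 0, 1, 2 and 3 or more UMIs of the 3 genes, and at 262, 344, 495 and 645 in RP-6306 B cells. The Plac8 level was higher at each step with no gap at the threshold, so the chosen cells are a range and not a type.

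Because detection depends on depth, the joint detection of the 3 genes was also read after every B cell was thinned to 1500 UMIs. Among vehicle B cells with Fcrl5, 13.6% (9 of 66, 6.43 to 24.3) had Sox5, against 3.51% of those without Fcrl5. In the RP-6306 library these shares were 8.82% (6 of 68, 3.31 to 18.2) and 3.43%, so the interval there reached the share without Fcrl5. Mzb1 was found in 33.3% of vehicle B cells with Fcrl5 and 16.8% of those without, but in 20.6% and 20.5% in the RP-6306 library. Without thinning the Mzb1 shares were 50.7% and 23.7% in the vehicle library and 53.2% and 26.1% in the RP-6306 library. In thinned T cells, Sox5 was seen in 1.41% and 1.48% of cells, Fcrl5 in 0 of 1843 and 1 of 2237 cells, and Mzb1 in 0.109% and 0.0894%.

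A few chosen cells lacked B cell transcripts other than Ebf1. No UMI of Cd79a, Ms4a1 or Pax5 was found in 2 vehicle cells, with 952 and 2047 UMIs, and in 8 RP-6306 cells, of which 1 had 1177 UMIs and the others 14963 to 41815. The 8 RP-6306 cells together held 169 UMIs of Ebf1, which is also known from stromal and fat cell precursors, and 81 of Sox5, but none of Fcrl5, Mzb1 or Ptprc, the gene of CD45. They held 1517 UMIs of Sparc and 617 of Fn1, both of the extracellular matrix, 248 of Slit3, a secreted guidance protein, and 109 of Fabp4, a fatty acid carrier. These 8 cells gave 14.4% of the UMIs of the RP-6306 chosen cells, 98.3% of their Sparc UMIs and 24.4% of their Sox5 UMIs. The 7 larger ones together had 1 UMI of IgM or IgD, and the label of B cell goes against the data for the group as a whole. Some results below are given with and without the cells that lack Cd79a, Ms4a1 and Pax5, a step added after the data were seen. Other RP-6306 values for all chosen cells include those cells, with their 14.4% of the UMIs.

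**Figure D1:**
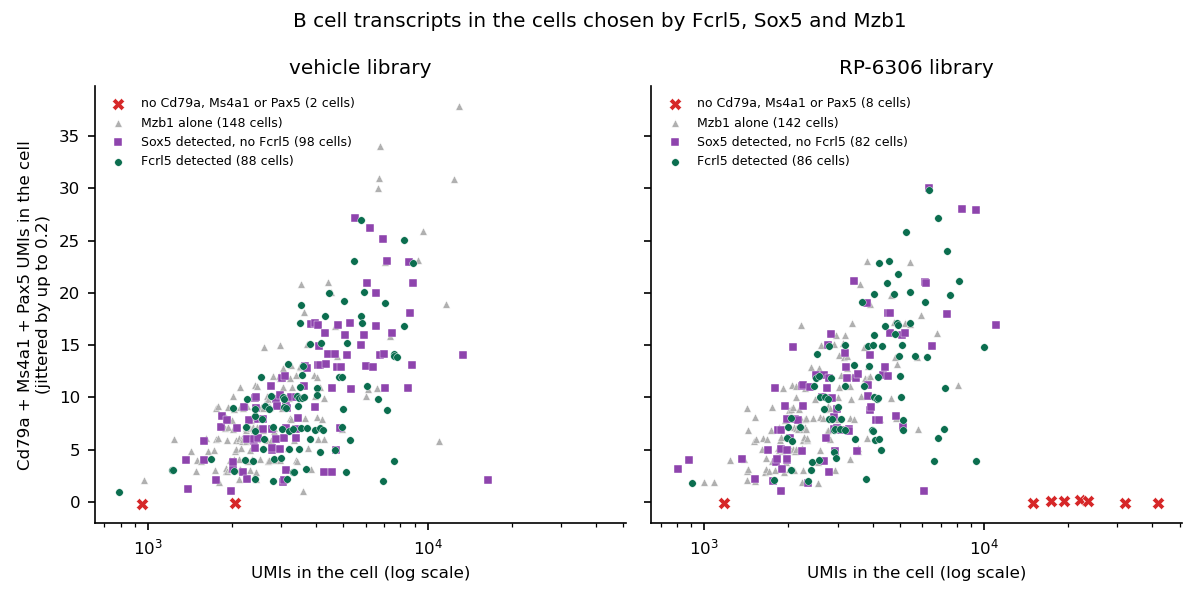
Summed UMIs of Cd79a, Ms4a1 and Pax5 in each chosen cell (vertical axis, jittered by up to 0.2) against all UMIs of that cell (horizontal axis, log scale), in the vehicle library (left) and the RP-6306 library (right), with 1 symbol per cell and a colour for each subset. In the RP-6306 library the red crosses between 14963 and 41815 UMIs lie at 0 on the vertical axis, away from the other chosen cells.

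Markers of T cells, NK cells and neutrophils were low in the chosen cells, while those of macrophages and monocytes stood above other B cells. The rule limits T cell receptor, Cd3 and Lyz2 UMIs in both cell groups, so low T cell and myeloid levels are partly set by it. The 4 neutrophil genes had no UMI in either library, while the 8 T cell genes summed to 61.8 and 73.5 CPM, against 96.2 and 95.1 CPM in other B cells, and the 73.5 was 41.9 without the cells that lack Cd79a, Ms4a1 and Pax5. The 6 NK cell genes summed to 61.8 CPM in the vehicle library, against 67.0 in other B cells, and to 4.18 in the RP-6306 library, against 32.5. The 8 macrophage and monocyte genes summed to 201 and 150 CPM, against 84.8 and 128 in other B cells, and Apoe gave most of it, with 184 and 133 CPM. The atypical B cell markers Itgax and Tbx21 had 0 and 2 UMIs in the vehicle library and 1 and 0 in the RP-6306 library. All 9 genes of the atypical or age-associated list summed to 857 and 870 CPM, against 813 and 766 in other B cells. Fas, on the same list, had 31 vehicle and 11 RP-6306 UMIs in the cells with germinal centre transcripts described below. The remaining chosen cells held 8 and 8.

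Over the whole transcriptome the chosen cells differed from other B cells in few genes. Of 6248 genes with a mean of at least 20 CPM, 18 were at least 2-fold higher (0.288%) and 4 at least 2-fold lower (0.064%) in the chosen cells in both libraries, on the log2(CPM + 1) scale used for all differences, and the median log2 difference was -0.04. A gene that passes this filter only through the group where it is high has to differ, so counts over the genes that passed are descriptions. The plasma and B cell gene Jchain, which links IgM and IgA polymers, had 225 UMIs in vehicle chosen cells against 2 in other B cells, and 47 against 0 in the RP-6306 library. Atxn1, a nuclear repressor of transcription, stood at 200 against 72.0 CPM (log2 difference 1.46, 1.24 to 1.71) and at 195 against 45.3 CPM (2.08, 1.83 to 2.38). Also higher were Lmo7, an actin-binding protein (mean log2 difference 2.69), Mybl1, a transcription factor of germinal centre cells (2.91), Pdzd2 (1.79), Agbl1 (2.03), Tmem154 (1.11) and the proliferation gene Mki67 (1.64). Without cells that held at least 3 germinal centre UMIs, Mybl1 was at -0.77 and Mki67 at 0.44, and 78 of the 79 vehicle UMIs of Mybl1 lay in those cells. Mybl1 is itself a gene of the list that defines those cells, so leaving them out had to lower it. Mki67 is not on that list.

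The genes lower in the chosen cells in both libraries were Camk4, a calcium-dependent kinase (-2.13), Lef1, a transcription factor of the Wnt pathway (-1.57), the chemokine gene Cxcl2 (-1.2003) and the light chain gene Igkv12-44 (-1.195). Without the cells that lack Cd79a, Ms4a1 and Pax5, 15 genes were higher and 6 lower of 6128. Fabp4 then had a mean log2 difference of 0.22 in place of 3.48, Ccn1, a matrix protein, 0.15 in place of 2.67, and Csrp2, a cytoskeletal LIM protein, 0.05 in place of 1.37, so these 3 calls rested on those cells. Slit3, at 1.52 in place of 3.996, no longer passed the filter. Mki67 was at 0.91 in the RP-6306 library and Igkv12-44 at -0.94, both just short of 2-fold. New calls were Tbc1d9 and Rgs1, a regulator of G protein signalling, which were higher, and the lower genes then included Dlgap1 and Rgl1.

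Among marginal zone genes, Plac8 and Cd36 were higher in the chosen cells, and the gene of the classical receptor Cr2 was not. Plac8, a cysteine-rich protein gene of myeloid and marginal zone cells, stood at 552 against 264 CPM in the vehicle library (log2 difference 1.06, 0.93 to 1.19) and at 583 against 262 in the RP-6306 library (1.15, 1.02 to 1.29). Cd36, a scavenger receptor, stood at 41.0 against 10.3 CPM (1.89, 1.42 to 2.57) and at 100.2 against 12.4 (2.91), the latter 2.19 without the cells lacking Cd79a, Ms4a1 and Pax5. The chosen cells were thus higher for both genes in both libraries.

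Cr2, the complement receptor, stood at 227 against 262 CPM (-0.20) and 230 against 241 (-0.06, or 0.16 without the cells lacking Cd79a, Ms4a1 and Pax5), and Notch2, which directs marginal zone fate, at 141 against 165 (-0.22) and 124 against 154 (-0.31). Cd9, a tetraspanin, was at 50.6 against 45.4 (0.15, -0.27 to 0.56) and 48.4 against 27.0 (0.82, 0.37 to 1.30), and Dtx1, a Notch target, at 39.4 against 29.2 and 37.6 against 27.0, with both of its intervals reaching below 0. Cd1d1, which presents lipids, had 10 and 26 UMIs and did not pass the filter. Of 13 marginal zone genes 8 passed, 2 of them at least 2-fold higher in both libraries, and the median log2 difference was 0.33, against -0.04 over all genes tested. That median was -0.02 in the vehicle and 0.69 in the RP-6306 library.

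B-1 genes were higher at low levels, without the classical surface markers. Ahr, the aryl hydrocarbon receptor, stood at 62.6 against 29.0 CPM (1.08, 0.70 to 1.51) and 63.5 against 25.5 (1.28, 0.88 to 1.74), and Il5ra, the interleukin 5 receptor chain that B-1 cells use, at 49.8 against 34.2 (0.53, 0.10 to 0.97) and 70.1 against 30.6 (1.17, 0.79 to 1.60). Bhlhe41 had 21 and 19 UMIs, which is 16.9 against 4.96 CPM (1.58, 0.87 to 2.64) and 15.9 against 5.69 (1.33, 0.55 to 2.38). Of 10 B-1 genes only Ahr and Il5ra passed the filter, with a median of 1.02.

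Cd5 and Spn, the surface markers of B-1a and B-1 cells, had 6 and 3 UMIs in the vehicle and 5 and 2 in the RP-6306 chosen cells, with differences whose intervals covered 0. The 4 V genes known from B-1a antibodies to phosphatidylcholine summed to 26.5 CPM against 25.5 in other B cells of the vehicle library and to 20.04 against 36.5 in the RP-6306 library. V genes resemble each other closely, so their counts are uncertain. The B-1 genes that stood higher were thus Ahr, Il5ra and Bhlhe41, and not the surface or V gene markers.

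Memory genes split. Cd80, a costimulatory ligand, stood at 18.5 against 4.04 CPM (1.95, 1.28 to 3.10) and 16.7 against 6.11 (1.32, 0.55 to 2.32), and Nt5e, the ectoenzyme CD73, at 29.7 against 6.80 (1.98, 1.43 to 2.83) and 15.03 against 3.37 (1.87, 1.10 to 3.22), but neither passed the filter. In the vehicle library 30 Nt5e UMIs lay in the cells with germinal centre transcripts described below and 7 in the remaining chosen cells. Those remaining cells were at 6.97 CPM, level with other B cells, and in the RP-6306 library at 9.72 CPM. Cd38, an ectoenzyme kept by memory cells, was slightly higher, at 238 against 183 (0.37, 0.18 to 0.57) and 222 against 180 (0.30, 0.10 to 0.50). Pdcd1lg2 did not stand higher, with 16.1 against 18.7 and 11.7 against 15.4 CPM, and Cd27 had 1 UMI and 0. Of 11 memory genes 5 passed the filter, none of them at least 2-fold higher in both libraries, with a median of 0.12. Without the cells lacking Cd79a, Ms4a1 and Pax5 that median was 0.23.

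Follicular genes were lower as a group. All 14 passed the filter, 11 were lower and none higher in both libraries, and the median log2 difference was -0.57, against -0.04 over the 6248 genes, of which 2294 were lower in both. Fcer2a, the IgE receptor CD23 that marginal zone cells lack, stood at 133 against 224 CPM (-0.75, -1.00001 to -0.52) and 159 against 231 (-0.54, -0.77 to -0.32). Satb1, a chromatin organiser, stood at 845 against 1469 (-0.80, -0.89 to -0.70) and 858 against 1518 (-0.82, -0.92 to -0.73). Klf2, a factor of quiescence and traffic, and Ighd were lower by -0.69 and -0.61 in the vehicle library and by -0.74 and -0.60 in the RP-6306 library, while Cxcr5, the follicle homing receptor, was not (0.03 and -0.01). None of the 14 genes was past 2-fold. Without the cells lacking Cd79a, Ms4a1 and Pax5 the median was -0.48, with 12 genes lower and 1 higher in both libraries. In the RP-6306 library alone it was then -0.29 in place of -0.51.

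**Figure D2:**
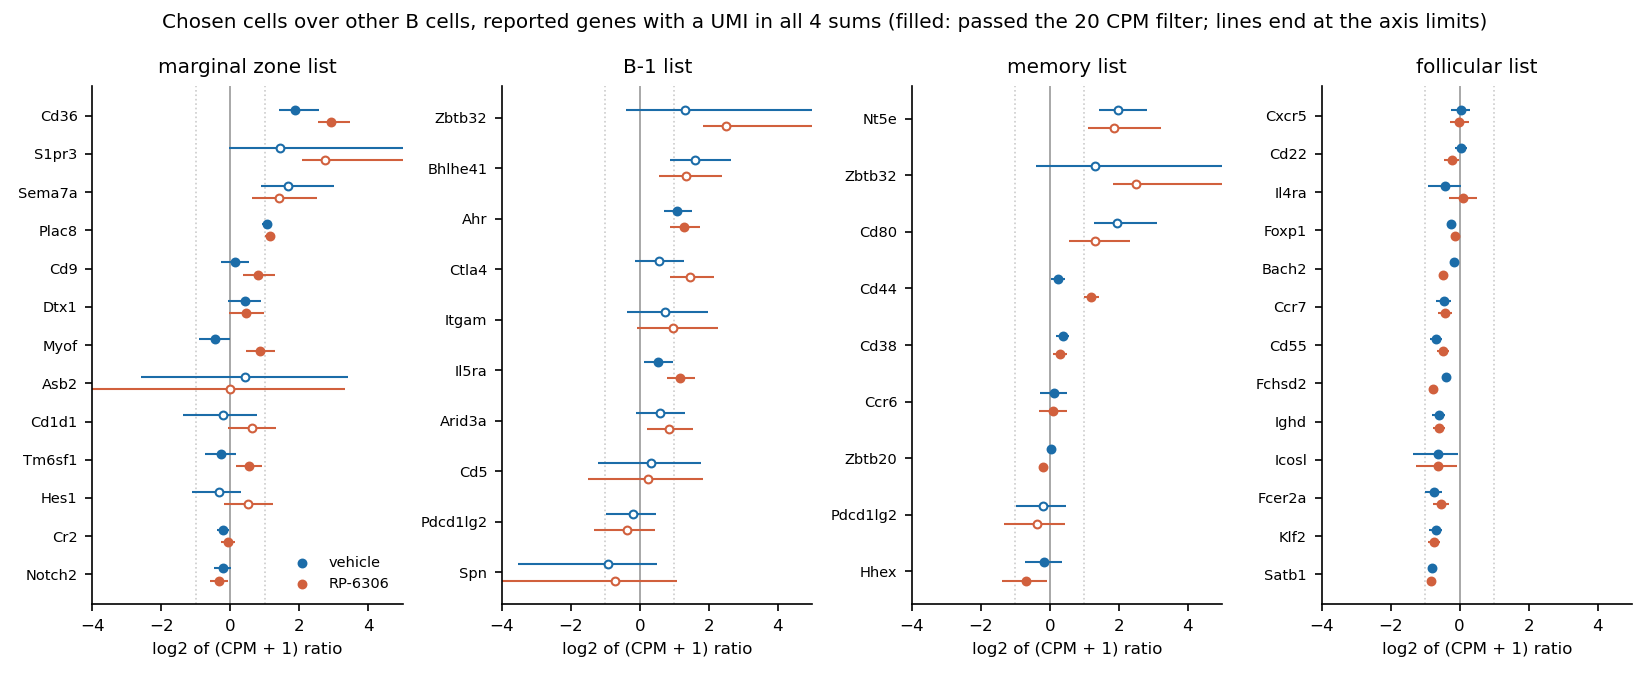
Log2 ratios of (CPM + 1) in the chosen cells over other B cells for the genes of the marginal zone, B-1, memory and follicular lists that are reported here and had a UMI in all 4 sums, in the vehicle (blue) and RP-6306 (orange) libraries. Points are ratios, lines are 95% counting intervals that end at the axis limits, open points did not pass the 20 CPM filter and dotted lines mark 2-fold. Plac8 and Cd36 stand above 2-fold in both libraries, and the follicular genes from Ccr7 down lie below 0 in both.

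Cybb, the membrane subunit of the NADPH oxidase, stood at 373 against 257 CPM (0.53, 0.38 to 0.69) and at 288 against 227 (0.34, 0.16 to 0.52). Of its partners, Cyba was at -0.02 and -0.07 and Ncf1 at 0.03 and -0.02. The median over the 6 oxidase genes was -0.02, or 0.08 without the cells lacking Cd79a, Ms4a1 and Pax5. Of the genes of the secretory pathway, in which Mzb1 acts, Pdia4 (0.83 and 0.85) and Edem1 (0.56 and 0.60) were higher in both libraries, while the plasma cell regulators Xbp1 (-0.27 and 0.05) and Irf4 (-0.03 and -0.06) were not, and Tnfrsf17 had no UMI. The 11 of 16 plasma cell and secretion genes that passed had a median of 0.38, with 1, Jchain, at least 2-fold higher. That median was 0.28 without the cells lacking Cd79a, Ms4a1 and Pax5. Genes of MHC class II and costimulation had a median of -0.27 over the 12 of 13 that passed, with 10 below 0 in both libraries, as were 2294 of the 6248 genes tested (36.7%). Without the cells lacking Cd79a, Ms4a1 and Pax5, 8 were below and 2 above 0, with a median of -0.16, and of -0.06 in the RP-6306 library.

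Read per cell at 1500 UMIs, identity genes were found in many other B cells as well. At least 2 UMIs of the marginal zone list were found in 44.0% (38.5 to 49.6) of 325 vehicle and 51.3% (45.5 to 57.1) of 304 RP-6306 chosen cells, against 36.3% and 34.7% of other B cells and 6.51% and 4.69% of T cells. For the B-1 list the shares were 4.92% and 8.22%, against 2.46% and 1.92% of other B cells, and T cells, which carry Cd5, Spn and Ctla4 themselves, had 10.8% and 6.97%. For the memory list they were 56.3% and 51.6%, against 50.3% and 48.3%, with 40.4% and 37.2% of T cells, so this list tells lineages apart poorly. Thinning left out 11 and 14 chosen cells that were shallower.

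Such a class is also a range, since 57 vehicle and 67 RP-6306 cells lay at exactly 2 marginal zone UMIs and 87 and 86 at 1. Unthinned, the marginal zone shares were 71.1% and 72.3% of chosen cells, 50.8% and 41.9% of other B cells and 24.6% and 15.2% of T cells. At 1500 UMIs, 49 vehicle and 73 RP-6306 chosen cells passed for the marginal zone list alone, 86 and 74 for the memory list alone, 99 and 89 for more than 1 list, and 89 and 65 for none. The lists overlapped within cells, and each left many chosen cells out.

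The 3 genes picked out subsets that differed from each other, so the chosen cells were split by them after the cells without Cd79a, Ms4a1 and Pax5 were set aside. Fcrl5 was detected in 88 vehicle and 86 RP-6306 cells (26.2% and 27.0%), Sox5 without Fcrl5 in 98 and 82 (29.2% and 25.8%), and Mzb1 alone in 148 and 142 (44.0% and 44.7%). Their median UMIs were 3535 and 4005.5, 3417.5 and 2912, and 2591.5 and 2313.5. Fcrl5 lies on chromosome 3 (GRCm38 87435773 to 87500678, plus strand) and Sox5 on chromosome 6 (143828425 to 144781977, minus strand).

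Cells with Fcrl5 had the highest median differences over the marginal zone and B-1 lists of the 3 subsets. In them 36 of the 6248 genes were at least 2-fold higher (0.576%) and 107 at least 2-fold lower (1.71%) than in other B cells in both libraries. The filter behind the 6248 genes used sums that still held the cells lacking Cd79a, Ms4a1 and Pax5, which the subsets leave out. Matrix genes such as Tnc and Col12a1, with 0 UMIs in the cells with Fcrl5, were thus counted as lower. The counts of lower genes in all 3 subsets are therefore descriptions. Plac8 stood at 959 against 264 CPM (1.86, 1.68 to 2.03) in the vehicle library and 896 against 262 (1.77, 1.59 to 1.95) in the RP-6306 library. Atxn1 stood at 342 against 72.0 (2.23, 1.94 to 2.55) and 300 against 45.3 (2.70, 2.38 to 3.07), in 49 and 41 cells with a UMI. Both genes were 3-fold or more above other B cells in each library, and the difference was larger than in the chosen cells as a whole.

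Ahr in cells with Fcrl5 stood at 133 against 29.0 CPM and 106 against 25.5, Il5ra at 76.4 against 34.2 and 118 against 30.6, Cd36 at 93.3 against 10.3 and 61.6 against 12.4, and Bhlhe41 at 19.8 against 4.96 and 27.996 against 5.69. Cd38 (325 against 183 and 297 against 180) and Cd9 (70.7 against 45.4 and 58.8 against 27.0) were higher too, and Cr2 was level (283 against 262 and 246 against 241). Ighm stood at 973 against 688 (0.50, 0.34 to 0.66) and 767 against 618 (0.31, 0.13 to 0.49), while Ighd was lower (-0.35 and -0.60). Plac8, Atxn1, Ahr, Il5ra and Cd36 were thus higher beside a level Cr2. At 1500 UMIs Ighm was in 55.3% of RP-6306 cells with Fcrl5 and 58.7% of other B cells.

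Fcer2a in cells with Fcrl5 stood at 99.0 against 224 CPM (-1.17, -1.71 to -0.69) and 101 against 231 (-1.19, -1.72 to -0.72), Satb1 at 744 against 1469 and 798 against 1518, and Vpreb3, a gene of the precursor receptor, at 22.6 against 98.1 and 67.2 against 152. Camk4 had 0 and 1 UMI. Medians over list genes that passed were 0.66 for marginal zone (7 of 8 above 0 in both libraries), 1.81 for B-1 (Ahr and Il5ra), 0.50 for memory and -0.85 for follicular genes (13 of 14 below 0), against -0.08 over all 6248 genes, of which 1667 were above and 2385 below 0 in both libraries. At 1500 UMIs, 62.4% (51.2 to 72.6) of vehicle and 60.0% (48.8 to 70.5) of RP-6306 cells with Fcrl5 had at least 2 marginal zone UMIs, and 10.6% and 14.1% at least 2 B-1 UMIs. The germinal centre genes Gcsam and Mybl1 had no UMI in these cells in either library.

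Cells with Sox5 and no Fcrl5 held germinal centre transcripts. Against other B cells 23 of the 6248 genes were at least 2-fold higher (0.368%) and 31 at least 2-fold lower (0.496%) in both libraries, and Jchain and Mybl1 led them. Gcsam, a signalling adaptor of germinal centre cells, had 37 UMIs (89.5 CPM) in vehicle cells and 12 (42.9 CPM) in RP-6306 cells, against 0.37 and 0 CPM in other B cells. Mybl1 stood at 116 against 3.86 CPM and 32.2 against 2.95, and Jchain had 73 UMIs in 22 cells and 31 in 6.

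Nt5e, which germinal centre cells also carry, stood at 67.8 against 6.80 CPM and 21.5 against 3.37 in the cells with Sox5, and Fas, a death receptor, at 46.0 against 7.90 and 32.2 against 6.11. Other higher genes were Neil1, a DNA glycosylase (2.29 and 1.02), Basp1 (2.16 and 1.04), and the chromatin gene Hmgb2 (1.47 and 1.10). Bcl6, the regulator of the germinal centre, did not differ beyond counting error (0.23, -0.47 to 0.86, and -0.62, -1.71 to 0.26). Plac8 differed between the libraries here, at 310 against 264 CPM in the vehicle and 640 against 262 in the RP-6306 library.

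In cells with Mzb1 alone, 14 genes were at least 2-fold higher (0.224%) and 32 at least 2-fold lower (0.512%) in both libraries. Plac8 stood at 456 against 264 CPM (0.79, 0.58 to 1.00) and 448 against 262 (0.77, 0.54 to 1.00), and Cybb at 410 against 257 (0.67) and 329 against 227 (0.53). Fcer2a was at 179 against 224 and 288 against 231, with opposite directions in the 2 libraries. The follicular median was -0.18, and that of the marginal zone genes 0.03.

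**Figure D3:**
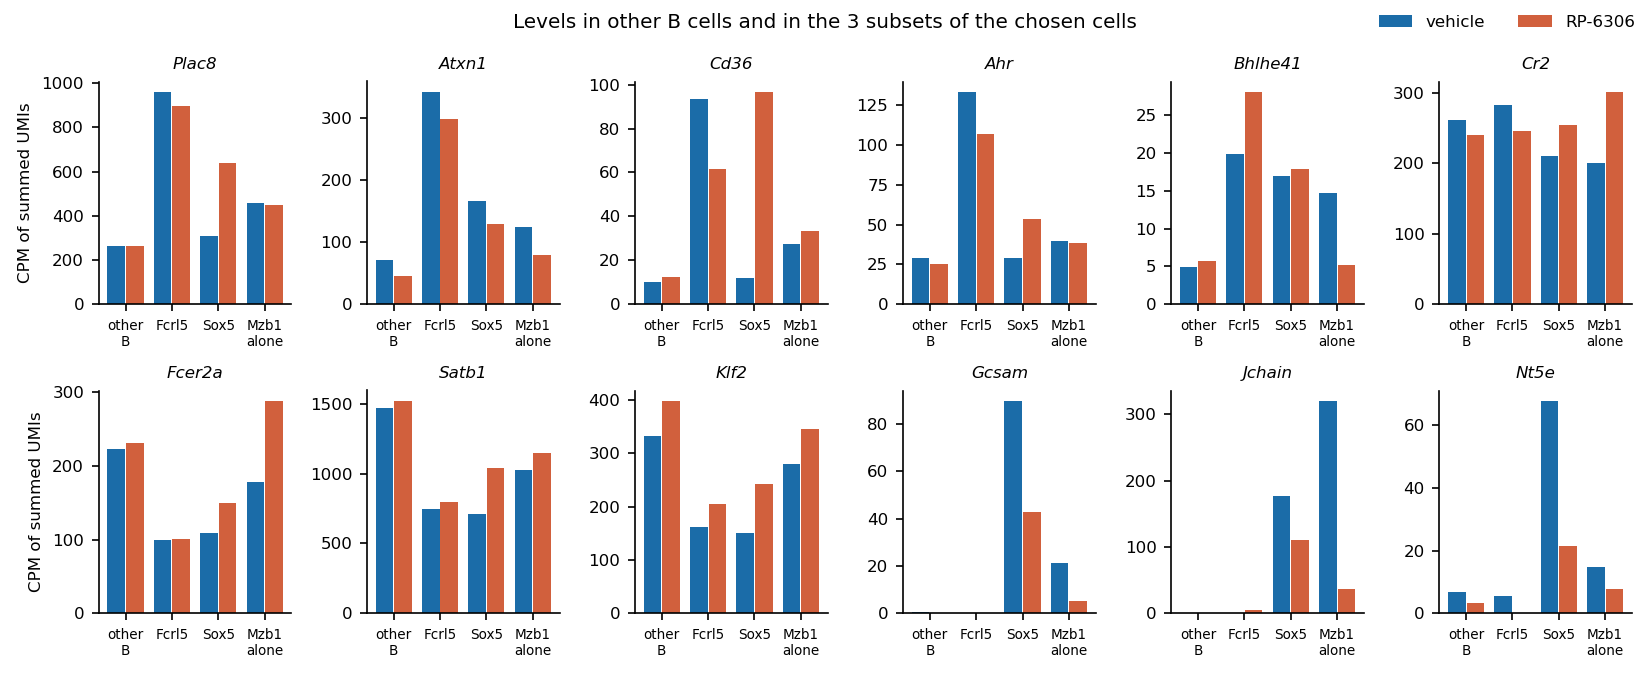
CPM of summed UMIs (vertical axes, each from 0) of 12 genes in other B cells and in the chosen cells with Fcrl5, with Sox5 and no Fcrl5, and with Mzb1 alone, in the vehicle (blue) and RP-6306 (orange) libraries, with 1 sum per bar and no replicate. Plac8 reaches 959 and 896 CPM in the cells with Fcrl5, whose Fcer2a bars are at 99.0 and 101, and Gcsam is highest in the cells with Sox5, at 89.5 and 42.9.

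Germinal centre transcripts lay together in a minority of the chosen cells. At least 3 UMIs of the 10 germinal centre genes were found in 39 vehicle cells (11.6%, 8.39 to 15.5) and 14 RP-6306 cells (4.403%, 2.43 to 7.28), against 0.447% and 0.466% of other B cells and 0.646% and 0.831% of T cells. By subset they were 28 of 98 vehicle and 8 of 82 RP-6306 cells with Sox5, 10 of 148 and 4 of 142 with Mzb1 alone, and 1 of 88 and 1 of 86 with Fcrl5. Near the limit, 8 and 11 chosen cells had exactly 2 such UMIs and 5 and 2 exactly 3. These cells were deep, with medians of 5783 and 4590.5 UMIs. After thinning to 1500 UMIs the shares were 5.23% (17 of 325, 3.08 to 8.24) and 3.29% (10 of 304, 1.59 to 5.97), against 0.145% and 0.220% of other B cells, and the intervals of the 2 libraries overlapped.

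The cells with germinal centre transcripts had little Plac8, Cd38 and Ighd, by genes chosen after their values were seen. In the 39 vehicle cells Plac8 stood at 29.1 CPM against 677 in the remaining chosen cells, Cd38 at 54.0 against 282 and Ighd at 20.8 against 288. In the 13 RP-6306 cells that also had Cd79a, Ms4a1 or Pax5 these were 136 against 609, 60.5 against 232 and 0 against 261. Sox5 stood at 531 against 210 CPM and 635 against 256 in the cells with germinal centre transcripts, and Fcrl5 at 4.15 against 137 and 15.1 against 126, though both genes are part of the rule. Mki67 stood at 627 against 36.8 and 242 against 33.6, and Nt5e at 125 against 6.97 and 106 against 9.72. In both libraries the remaining chosen cells thus held more Plac8, Cd38 and Ighd than the fewer cells with germinal centre transcripts. They held less Mki67, Nt5e and Sox5. Against other B cells, Ighd was lower in the chosen cells as a whole, as given above.

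Class-switched heavy chains lay in the same cells. Of chosen cells with at least 2 heavy chain constant UMIs, 21 of 264 vehicle cells (7.95%, 4.99 to 11.9) and 4 of 231 RP-6306 cells (1.73%, 0.474 to 4.37) had more IgG, IgA and IgE than IgM and IgD UMIs, against 1 of 1493 and 0 of 1283 other B cells. Of these switched cells, 19 of 21 and 4 of 4 had at least 3 germinal centre UMIs. Ighg1, the IgG1 chain, had 348 UMIs in the vehicle and 18 in the RP-6306 chosen cells, but 1 vehicle cell of 10965 UMIs held 284 of the 348. That cell also held 57 of 667 Mzb1 UMIs, 111 of 225 Jchain UMIs and 260 of 305 UMIs of Slpi, a protease inhibitor, with 4 UMIs of Ighm and 2 of Ms4a1. No other chosen cell came near its Mzb1 count in the RP-6306 library, where the highest was 10.

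Of the V genes, Ighv1-76 gave 45.6% of the heavy chain V UMIs of the vehicle chosen cells, from 6 cells, and Igkv14-111 40.3% of the kappa V UMIs, from 22 cells. The share of a single cell in these UMIs is not given here, so they do not show how evenly the cells used either gene. In the RP-6306 chosen cells and in other B cells of either library no heavy chain V gene reached 5%, the highest being Ighv7-3 with 4.94%. The highest kappa V gene there was Igkv1-117, with 8.16% in the RP-6306 chosen cells. The lambda constant gene Iglc1 was higher in the chosen cells, at 94.0 against 37.3 CPM (1.31, 0.99 to 1.67) and 69.3 against 31.6 (1.11, 0.73 to 1.53), and Iglc2 was at 0.05 and 0.31. The Iglc genes are near-identical copies, and how the authors' counting split reads between them is uncertain.

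**Figure D4:**
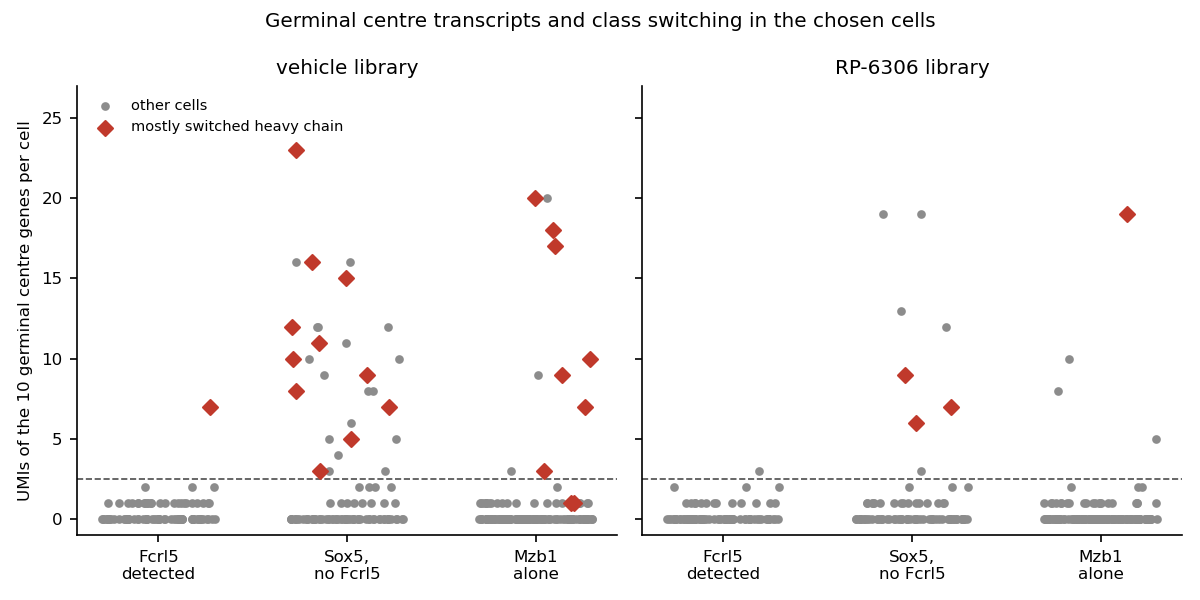
UMIs of the 10 germinal centre genes in each chosen cell (vertical axis) by subset (horizontal axis, jittered), in the vehicle (left) and RP-6306 (right) libraries, with red diamonds for cells whose heavy chain UMIs were mostly class-switched and a dashed line below 3 UMIs. Of the diamonds, 19 of 21 and 4 of 4 lie above the line, mostly among the cells with Sox5 or Mzb1 alone.

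Between the treatments, summed germinal centre and proliferation genes of the chosen cells were lower in the RP-6306 library, where fewer chosen cells held germinal centre transcripts. In the remaining chosen cells Mki67 stood at 36.8 CPM in the vehicle and 33.6 in the RP-6306 library, and Stmn1, which destabilises microtubules, at 38.8 and 42.4. Top2a, another proliferation gene, was lower there, at 60.7 and 38.9. At 1500 UMIs the shares of cells with germinal centre transcripts were 5.23% and 3.29%, with overlapping intervals. What part of the lower sums came with these cells was not tested. Of 6340 genes with a mean of at least 20 CPM, 254 were at least 2-fold higher (4.01%) and 81 at least 2-fold lower (1.28%) in the RP-6306 than in the vehicle chosen cells, against 11 (0.179%) and 18 (0.293%) of 6137 genes in other B cells. Sums over few cells vary more, so the 2 cell groups are not compared by these counts. Without the cells lacking Cd79a, Ms4a1 and Pax5, 56 genes were higher (0.918%) and 108 lower (1.77%) of 6098. The largest differences in the full set were matrix genes such as Col5a2 (852 UMIs against 0), Col1a2 (1155 against 1), Bgn (369 against 0) and Postn (522 against 1), which were at 0.98 CPM or less without those cells.

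The proliferation list had a median log2 difference of -1.27, with 6 of 6 genes that passed below 0 and 4 at least 2-fold lower, and -1.31 without the cells lacking Cd79a, Ms4a1 and Pax5, against -0.17 in other B cells and 0.00 over all genes tested. Mki67 stood at 151 CPM in the vehicle and 45.1 in the RP-6306 library (-1.72, -2.21 to -1.30), and Top2a, which untangles DNA, at 134 and 40.1 (-1.72). The germinal centre list had a median of -0.94, with 7 of 7 genes that passed below 0 and 3 at least 2-fold lower. Of all genes tested, 1.28% were at least 2-fold lower. Some list genes, such as Gcsam and Mybl1, passed the filter only through the vehicle library, where they were higher. The counts of both lists are therefore descriptions. Gcsam stood at 37.8 and 11.7 CPM (-1.61) and Mybl1 at 63.4 and 15.9 (-1.93), while Nuggc, a nuclear GTPase of germinal centre cells, was at 24.9 and 21.7 (-0.19, -1.01 to 0.60). Cells with at least 3 germinal centre UMIs were 39 in the vehicle and 14 in the RP-6306 library, and without them 49 genes in place of 81 were at least 2-fold lower.

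Genes of single cells or few UMIs made up part of the lower set. Slpi stood at 245 and 4.18 CPM (-5.57), and a single vehicle cell held 85.2% of its UMIs there, while Jchain stood at 181 and 39.2 (-2.17), with 49.3% in that cell. Ccl5, a chemokine gene of T and NK cells, stood at 50.6 and 3.34 CPM (-3.57), Pclaf, a replication factor, at 85.1 and 18.4 (-2.15), and Cenpe, a mitotic motor, at 59.4 and 13.4 (-2.07). The NK cell list moved with Ccl5, from 61.8 to 4.18 CPM, and its part in that difference was not tested.

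Higher in the RP-6306 chosen cells, without the cells lacking Cd79a, Ms4a1 and Pax5, were Cxcr4, a chemokine receptor (47.5 and 128 CPM, log2 difference 1.41, 0.97 to 1.90), P2ry10, a lysophospholipid receptor (179 and 394, 1.14, 0.90 to 1.38), Neurl3, a ubiquitin ligase (117 and 251, 1.10) and Btg2, an antiproliferative gene (275 and 589, 1.09). In other B cells the same genes differed by 0.73, 0.67, 0.79 and 0.98, and whether the 2 cell groups differed in this was not tested. Many identity genes named above differed less. Plac8 was at 552 and 583 CPM (0.08), Cr2 at 227 and 230 (0.02), Ahr at 62.6 and 63.5 (0.02), Fcer2a at 133 and 159 (0.26) and Satb1 at 845 and 858 (0.02), and list medians were 0.05 for marginal zone, -0.16 for memory and 0.17 for follicular genes. For the 4 of 10 B-1 genes that passed the median was 0.40. Cd36 was at 41.0 and 100.2 CPM (1.27, 0.81 to 1.79), or at 0.55 without the cells lacking Cd79a, Ms4a1 and Pax5, and Cd1d1, below the filter with 10 and 26 UMIs, at 8.03 and 21.7 CPM (1.33, 0.33 to 2.65), or at 1.49 without them. Leaving out the cells lacking Cd79a, Ms4a1 and Pax5, which hold 14.4% of the RP-6306 UMIs, gave higher values for these B cell genes. Plac8 was then at 0.25 (0.10 to 0.41), Fcer2a at 0.48 (0.17 to 0.79) and Satb1 at 0.25, and the medians were 0.20, -0.08, 0.32 and 0.59 for marginal zone, memory, follicular and B-1 genes, against -0.12, -0.03, 0.05 and -0.17 in other B cells.

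**Figure D5:**
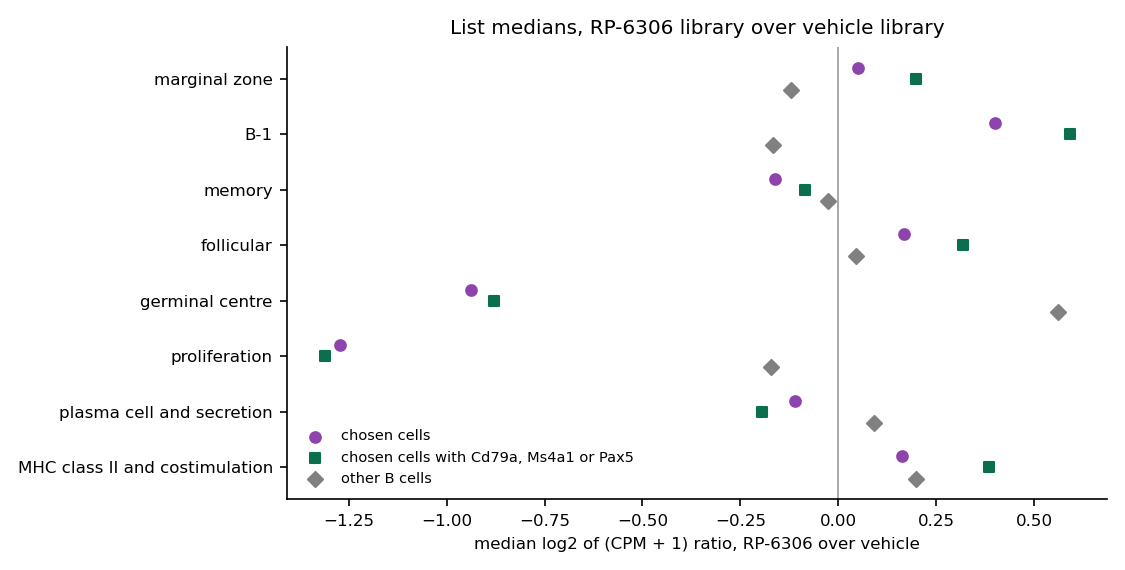
Median log2 ratio of (CPM + 1), RP-6306 library over vehicle library, over the genes of each list that passed the filter, for all chosen cells (circles), for the chosen cells with Cd79a, Ms4a1 or Pax5 (squares) and for other B cells (diamonds), with 1 library per group and no error bars. The germinal centre and proliferation lists of the chosen cells lie at -0.94 and -1.27, and the marginal zone and memory lists within 0.20 of 0 in all 3 cell groups.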

How the data were processed

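Values are counts of UMIs per gene and cell barcode, as deposited and not normalized. The submitters' processing notes name Cell Ranger 2.1.1 and mm10, without their roles, and the labels' protocols name the SeekOne DD 3' kit. Everything else was computed here in Python 3.11.15 (scipy 1.17.1 for intervals, numpy 2.4.6, matplotlib 3.10.9 and pandas 2.3.3). Cells needed 500 UMIs, 300 genes and at most 15% mitochondrial UMIs. Scrublet (scanpy 1.11.5) called 1 vehicle and 0 RP-6306 barcodes, too few to have worked, so no doublets were removed, and the top 6% of scores, which marks 9 and 3 chosen cells, is an alternative. T cells needed 3 UMIs of Cd3d, Cd3e and Cd3g and no B cell UMI.

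For each library, UMIs of a cell group were added up and expressed as CPM. Ratios are log2 with 1 CPM added. Their 95% intervals come from an exact binomial on the 2 UMI sums, leave that pseudocount out, and for genes of few UMIs need not contain the ratio. Shares carry Clopper-Pearson intervals. The step that calls 2-fold differences was tested on simulated data. With 1 library per group no p-value was computed. Medians and counts of lists cover the genes with a mean of at least 20 CPM. Gene bounds are from GENCODE for GRCm38, the assembly of mm10.

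The rule, the lists and the comparisons were chosen with earlier results of these data known. Named genes were taken from the rule genes with Cybb and Plac8, the marginal zone, B-1, memory, follicular, plasma cell, NADPH oxidase and immunoglobulin constant lists, up to 4 genes of any other list, the 12 highest and lowest of those past 2-fold in both libraries, and the 8 highest and lowest between treatments with at least 50 CPM and 50 UMIs, the last 2 without antigen receptor, mitochondrial, ribosomal, hemoglobin and unnamed genes. Other genes, such as those that led a subset, those of the cells without B cell transcripts and the V genes, were named after their values were seen. A few list genes count in list totals and are not reported here by name.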

Additional observations from a re-analysis of the deposited data

Results flagged for a closer look

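Of 147 list genes that passed the filter, 45 had opposite directions in the 2 libraries when the chosen cells were set against other B cells, and for 6 both counting intervals lay away from 0. The difference between the libraries was not tested, since each is 1 library. S100a6, a calcium-binding protein, was lower in the vehicle library (log2 difference -0.50, -0.65 to -0.36) and higher in the RP-6306 library (0.79, 0.67 to 0.92), where it was -0.09 without the cells that lack Cd79a, Ms4a1 and Pax5. S100a10, of the same family, was at -0.47 (-0.70 to -0.25) and 0.28 (0.07 to 0.49), and 0.16 without those cells. Vim, the intermediate filament vimentin, was at -0.38 (-0.54 to -0.23) and 0.67 (0.53 to 0.80), and -0.13 without them. Lgals1, the lectin galectin-1, was at -0.42 (-0.63 to -0.23) and 0.83 (0.65 to 1.01), and -0.56 without them. Sparc was at -0.37 (-0.70 to -0.07) and 3.73 (3.59 to 3.899), and -1.83 without them. Blnk, an adaptor of the B cell receptor, was higher in the vehicle library (0.30, 0.19 to 0.42) and lower in the RP-6306 library (-0.22, -0.36 to -0.08), and 0.00 without them. Without those cells S100a10 still had opposite signs, Blnk was at 0.00 in the RP-6306 library, and the other 4 were lower in both libraries.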

How the results depend on the processing

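No paired analysis was possible because each group has 1 library. No leave-one-out was possible for the same reason. Of the main values under an alternative, 179 stayed within a set margin and 53 moved. The margin was 1.5-fold for counts, a log2 difference of 0.25 for list medians and the 95% interval of the main value for shares. Of those of single genes, 311 kept their direction and stayed past 2-fold, whatever the change in size. Another 17 kept their direction but fell short of 2-fold, and 2 reversed. The alternatives that leave out cells lacking Cd79a, Ms4a1 and Pax5, cells over 10000 UMIs or cells with at least 3 germinal centre UMIs were chosen after seeing the data.

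The reversed genes were Ccn1, at -0.55 without cells over 10000 UMIs, and Mybl1, at -0.77 without cells with germinal centre transcripts. Mybl1 is a gene of the list that defines the latter cells, so its fall followed from leaving them out. Genes 2-fold higher in the chosen than in other B cells numbered 18 as reported, 8 with a 50 CPM filter, 137 with no filter and 28 where Fcrl5 or Sox5 was needed. Lower genes numbered 4 as reported, 1, 130 and 23 under these, 31 with at least 3 UMIs of the rule genes, 0 with the mean of CPM over cells and 2 with no UMI of Trac, Trbc2, Krt8, Krt18 or Lyz2 allowed. List medians moved to 0.0064 for marginal zone (50 CPM filter), 1.37 for B-1 (Fcrl5 or Sox5 needed), -0.17 for memory (at least 3 UMIs) and -0.31 for follicular genes (mean of CPM). Genes higher with RP-6306 numbered 254 as reported, 71 (50 CPM filter), 1822 (no filter), 86 (mean of CPM), 506 (at least 3 UMIs), 415 (Fcrl5 or Sox5 needed), 56 without the cells lacking Cd79a, Ms4a1 and Pax5 and 55 without cells over 10000 UMIs. Lower ones numbered 81 as reported, 20, 1045, 203 and 153 with the 50 CPM filter, no filter, at least 3 UMIs and Fcrl5 or Sox5 needed, and 49 without cells with germinal centre transcripts.

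The share of B cells was 4.45% and 4.02% (vehicle, RP-6306) at 3 UMIs, 3.89% and 4.17% with cells thinned before the rule, and 8.67% in the vehicle library without cells with germinal centre transcripts, when the switched share was 0.851% and 0%. Shares with list UMIs, in the same order, were 34.8% and 34.3% for marginal zone, 2.70% and 3.49% for B-1 and 39.3% and 35.9% for memory at 1000 UMIs, 71.1% and 72.3%, 18.8% and 18.6%, and 82.4% and 76.7% unthinned, and 26.5% and 29.3%, 1.23% and 3.62%, and 34.2% and 27.6% at 3 list UMIs. Unthinned, Mzb1 was in 50.7% and 53.2% of B cells with Fcrl5 and Sox5 in 18.5% of those of the RP-6306 library. Depth limits the low genes, since a few UMIs in about 300 cells give wide intervals, and the RP-6306 cells lacking Cd79a, Ms4a1 and Pax5 enter each RP-6306 sum given without leaving them out.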

Other observations

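Several traffic genes differed between the chosen and other B cells. Gpr183, the oxysterol receptor that guides B cells to the outer follicle, stood at 112 against 219 CPM in other B cells of the vehicle library (-0.96, -1.23 to -0.71) and at 93.5 against 168 in the RP-6306 library (-0.83, -1.14 to -0.55). Itgb7, an integrin chain, was at -0.65 and -0.62, and Ccr7, the T zone homing receptor, at -0.45 and -0.42. Itgb1, an integrin chain of matrix adhesion, was higher, at 83.5 against 51.1 CPM (0.70, 0.37 to 1.04) in the vehicle library and at 70.2 CPM (0.48) in the RP-6306 library without the cells that lack Cd79a, Ms4a1 and Pax5. Of 18 traffic genes 14 passed the filter, 9 lower and 2 higher in both libraries, with a median of -0.38, against 36.7% lower, 26.4% higher and a median of -0.04 over all genes tested. Without the cells that lack Cd79a, Ms4a1 and Pax5, 9 were lower and 4 higher, with a median of -0.32.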
